A study of Mus musculus with 20 samples.

Results

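Csf1r, the receptor tyrosine kinase on which microglia depend, was followed in the mouse hippocampus together with its ligands Csf1 and Il34 and with 3 related cytokine receptor genes, Csf2ra, Csf2rb and Csf3r. These 6 genes were taken by name from the deposited count table, with earlier results of these data known, and were 6 of 39056 genes in it; all 6 were among the 16107 genes that could be tested. The RNA came from the left hippocampus of 20 female C57BL/6 mice, 1 library a mouse, in 4 groups of 5: those without the transgene were WT Non-Tg (miR-34a+/+) and KO Non-Tg (miR-34a-/-), and those with it were WT Tg-SwDI (miR-34a+/+) and KO Tg-SwDI (miR-34a-/-). Tg-SwDI mice carry human APP with the Swedish, Dutch and Iowa mutations under the Thy1 promoter, which is active in neurons, so the transgene is not a microglial one. The miR-34a knockout is constitutive and affects the whole body, so it does not separate microglia from other cells. All 4 groups were littermates that had gone through behavioral tests at 12 months of age before the brains were perfused with PBS and collected. The comparisons ask whether the loss of miR-34a or the transgene changed the expression of this receptor system, and whether the miR-34a effect depended on the transgene.

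CSF1R is a class III receptor tyrosine kinase of microglia, macrophages and monocytes, and its signal is needed for microglia to survive, divide and renew themselves. Its ligands are CSF1, in the brain made mostly by glia, and IL-34, made mostly by neurons; they bind the same receptor although they share little sequence. CSF2RA and CSF2RB form the receptor of GM-CSF, with CSF2RA binding the ligand and CSF2RB carrying the signal, which CSF2RB also does for IL-3 and IL-5. CSF3R is the receptor of G-CSF and is best known from neutrophils.

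miR-34a acts by pairing its seed with the 3′UTR of messenger RNAs. The mature miR-34a-5p is shown because it is the RNA missing in the KO mice (RefSeq, GRCm38.p6, chr4:150068473-150068494, plus strand), with its seed (bases 2 to 8) in capitals.
mmu-miR-34a-5p: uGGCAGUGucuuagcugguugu
The longest annotated 3′UTR of each of the 6 genes (GENCODE M21) was searched for the complement of the seed (CACTGCC) and for the complement of bases 2 to 7 followed by an A (ACTGCCA). The 3′UTR of Csf1 (2111 bases, transcript ENSMUST00000118593.7, minus strand) held 2 such matches, against 31.2% of 2298 tested genes with a 3′UTR of similar length (within 20%) that held at least 1. They are shown because Csf1 was the ligand whose RNA differed between KO and WT Tg-SwDI mice, and the capitals mark the match.
Csf1, chr3:107742929-107742935: gccccccacatACTGCCActatttattgt
Csf1, chr3:107741187-107741193: ctcagagggagCACTGCCtcacaaactgt
The 3′UTR of Csf1r (1669 bases) held 1 match, and 26.6% of the 3′UTRs of similar length held at least 1. Those of Il34 (605 bases), Csf2ra (602 bases), Csf3r (602 bases) and Csf2rb (1816 bases) held 0, and over all 14708 tested genes with a 3′UTR the share with a match was 23.6%. A match is only a stretch of letters and shows no binding.

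Promoter sequences (RefSeq, GRCm38.p6, 250 bases before to 50 bases after the start) were available in the reference table for 3 of the 6 genes, Csf1, Csf3r and Csf2ra; Csf1r, Il34 and Csf2rb had no entry. They are shown because Csf1 and Csf3r rose with the transgene in both miR-34a genotypes while Csf2ra did not pass in WT mice. On both strands, 6 motifs were searched: the PU.1 core GAGGAA, AP-1 TGANTCA, the CRE TGACGTCA, the IRF element, STAT TTCNNNGAA and SP1 GGGCGG. Capitals mark every match.
Csf1, chr3:107760420-107760719, minus strand: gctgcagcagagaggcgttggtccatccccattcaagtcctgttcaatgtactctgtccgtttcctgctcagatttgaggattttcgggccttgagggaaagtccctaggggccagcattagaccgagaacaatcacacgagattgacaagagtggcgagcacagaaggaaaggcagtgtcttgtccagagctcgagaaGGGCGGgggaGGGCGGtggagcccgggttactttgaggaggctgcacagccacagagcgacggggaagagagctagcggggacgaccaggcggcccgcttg
Csf3r, chr4:126024409-126024708, plus strand: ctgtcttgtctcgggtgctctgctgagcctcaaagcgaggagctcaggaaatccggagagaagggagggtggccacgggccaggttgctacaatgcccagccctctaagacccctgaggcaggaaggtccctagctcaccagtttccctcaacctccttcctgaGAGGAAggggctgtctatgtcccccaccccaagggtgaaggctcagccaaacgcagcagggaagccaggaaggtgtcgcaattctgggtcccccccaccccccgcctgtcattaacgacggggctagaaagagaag
Csf2ra, chr19:61228369-61228668, minus strand: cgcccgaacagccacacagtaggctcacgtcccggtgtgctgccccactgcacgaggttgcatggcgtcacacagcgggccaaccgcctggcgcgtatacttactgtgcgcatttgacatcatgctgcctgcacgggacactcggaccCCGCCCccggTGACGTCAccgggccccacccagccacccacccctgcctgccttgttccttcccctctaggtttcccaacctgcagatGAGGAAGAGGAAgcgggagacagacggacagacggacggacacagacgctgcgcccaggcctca
The Csf1 promoter held 2 SP1 matches and the Csf3r promoter 1 PU.1 core, while that of Csf2ra held 2 adjoining PU.1 cores, 1 CRE and 1 SP1 match. AP-1, IRF and STAT letters were in none of the 3 windows. Of all 32851 promoters in the table, 28.3% held the PU.1 core, 35.7% the SP1, 1.79% the CRE, 7.81% the AP-1, 3.44% the IRF and 8.3% the STAT letters.

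Library totals ranged from 19549622 to 21066868 counts, so depth was much the same in the 20 mice. Levels are given in CPM, read counts scaled to a common library size with TMM factors, and 1 CPM stood for about 20 reads. Thy1, whose promoter drives the transgene, was higher in all Tg-SwDI mice than in all Non-Tg mice and so matched the labels. It was at 1905 to 2328 CPM in WT Tg-SwDI and at 2454 to 3318 CPM in KO Tg-SwDI mice, without overlap. App overlapped between these groups, at 1765 to 1958 and 1530 to 1918 CPM. Whether the Thy1 difference bears on the comparison of KO with WT in Tg-SwDI mice was not tested. Mir34a was looked up by its symbol but not found among the counted genes, so the KO label could not be checked on its own gene. Choroid plexus genes, which mark tissue dissected along with the hippocampus, differed widely within groups: their summed level (9 genes) was 61.8 to 4316 CPM in WT Non-Tg, 118 to 3766 in WT Tg-SwDI, 127 to 3886 in KO Tg-SwDI and only 64.6 to 347 in KO Non-Tg mice. Results that rest on the KO Non-Tg mice are therefore also given with a choroid plexus covariate where the call changed. That covariate was the mean log2 CPM of these 9 genes in each mouse, not their sum. Hippocampal tissue was checked on the neuron, astrocyte and oligodendrocyte lists (22 genes), all of which were expressed and tested.

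Csf1r rose with the transgene in both miR-34a genotypes and was highest in KO Tg-SwDI mice. Csf1r (ENSMUSG00000024621.15, chromosome 18, 61100598 to 61132149, plus strand) was at 131, 91.0, 105, 96.8 and 101 CPM in the 5 WT Non-Tg mice. In KO Non-Tg mice it was at 109, 115, 103, 94.3 and 105 CPM. In WT Tg-SwDI mice it was at 162.5, 193, 196, 192 and 193 CPM. In KO Tg-SwDI mice it was at 277, 307, 272, 267 and 257 CPM. All 10 Tg-SwDI mice lay above all 10 Non-Tg mice, the lowest KO Tg-SwDI mouse lay above the highest WT Tg-SwDI mouse, and the Non-Tg groups overlapped almost fully.

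Adjusted p is edgeR's quasi-likelihood p after Benjamini-Hochberg adjustment over all tested genes, and a gene passed at 0.05. Against Non-Tg mice, Csf1r was 1.78-fold higher in WT Tg-SwDI (log2 fold change 0.84, SE 0.08, adjusted p = 3.61e-08) and 2.62-fold higher in KO Tg-SwDI mice (1.39, SE 0.08, adjusted p = 1.54e-12). Between Tg-SwDI mice, KO exceeded WT 1.47-fold (95% interval 1.32 to 1.65), and by its p-value Csf1r stood at rank 4 of the 16107 genes. Between Non-Tg mice the KO to WT ratio was 1.002 (interval 0.893 to 1.12, adjusted p = 0.997). The KO effect in Tg-SwDI mice exceeded that in Non-Tg mice by 0.56 on the log2 scale (SE 0.11, interaction, adjusted p = 0.0199). Without KO Non-Tg replicate 7 the adjusted p of this difference was 0.0513. The 3′ end of Csf1r overlaps Hmgxb3 on the opposite strand; Hmgxb3 had 645 to 940 counts a mouse and a log2 fold change of 0.023 between KO and WT Tg-SwDI mice (adjusted p = 0.873). In bulk tissue, more cells of a type and more RNA per cell cannot be told apart, for Csf1r and for every receptor that follows.

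**Figure D1:**
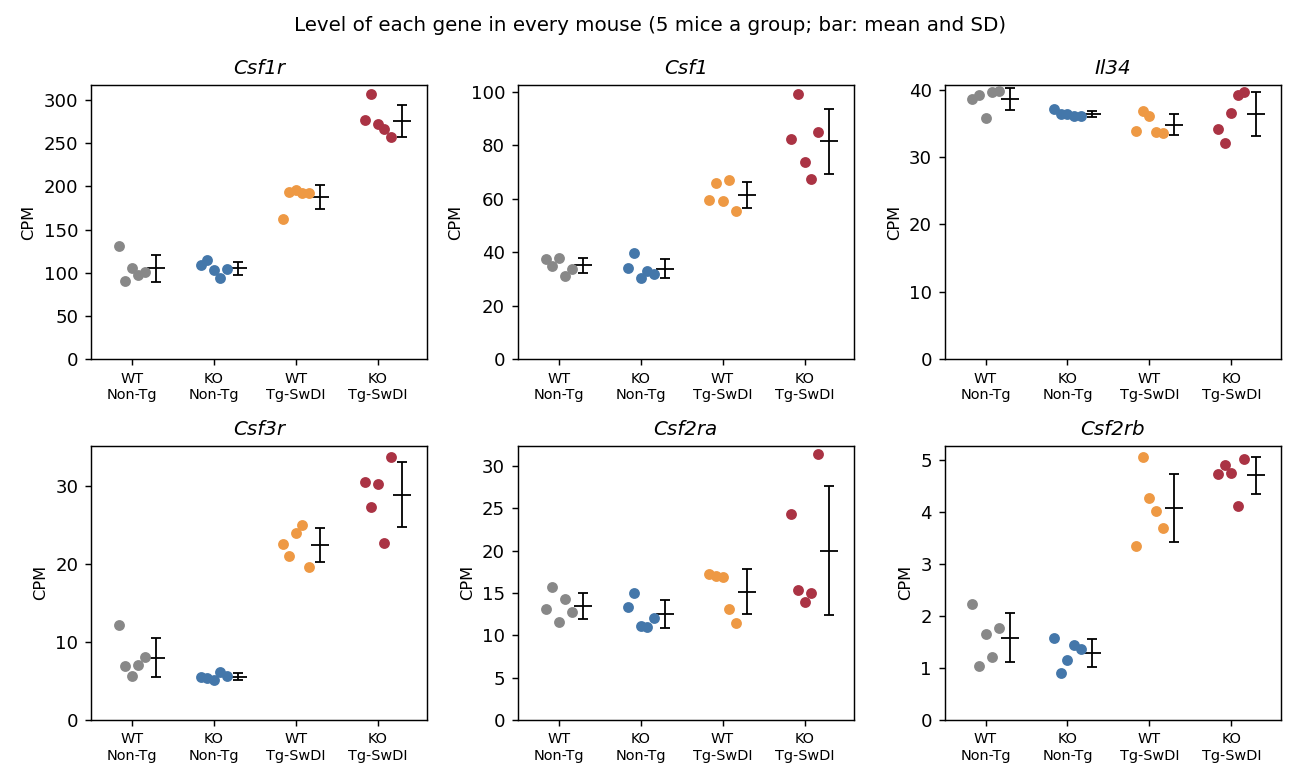
CPM of each of the 6 genes (y axes, from 0) in every mouse of the 4 groups (x axes); points are mice and the bar beside them is the mean with the SD. Csf1r, Csf1, Csf3r and Csf2rb lie higher in all Tg-SwDI than in all Non-Tg mice, Il34 stays between 32.1 and 39.9 CPM, and 2 KO Tg-SwDI mice stand above the rest for Csf2ra.

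Of the ligands, Csf1 followed its receptor. Csf1 (ENSMUSG00000014599.10, chromosome 3, 107741048 to 107760469, minus strand) was at 37.45, 34.9, 37.95, 31.2 and 33.6 CPM in WT Non-Tg and at 34.2, 39.6, 30.3, 32.8 and 32.0 CPM in KO Non-Tg mice. It was at 59.5, 66.0, 59.0, 66.8 and 55.5 CPM in WT Tg-SwDI and at 82.3, 99.1, 73.7, 67.3 and 84.8 CPM in KO Tg-SwDI mice. Again every Tg-SwDI mouse was above every Non-Tg mouse, and the lowest KO Tg-SwDI mouse (67.3 CPM) was only just above the highest WT Tg-SwDI mouse (66.8 CPM). The transgene raised Csf1 1.75-fold in WT (log2 fold change 0.81, SE 0.09, adjusted p = 5.47e-07) and 2.41-fold in KO mice (1.27, SE 0.09, adjusted p = 9.66e-11). KO exceeded WT 1.33-fold in Tg-SwDI mice (log2 fold change 0.41, SE 0.09, adjusted p = 0.0166). That call was lost without WT Tg-SwDI replicate 7 (0.38, adjusted p = 0.0608) and when the 10 Tg-SwDI mice were fitted alone (0.41, adjusted p = 0.0719). Between Non-Tg mice the ratio was 0.965 (95% interval 0.845 to 1.10), and the difference between the KO effects was 0.46 (SE 0.12), which missed the threshold (adjusted p = 0.0767).

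Il34, the neuronal ligand, passed no test in any comparison. Il34 (ENSMUSG00000031750.15, chromosome 8, 110741829 to 110805924, minus strand, overlapped by the antisense genes Gm15894 and Gm15895) was at 38.6, 39.3, 35.8, 39.7 and 39.9 CPM in WT Non-Tg and at 37.2, 36.4, 36.4, 36.2 and 36.2 CPM in KO Non-Tg mice. In WT Tg-SwDI mice it was at 33.85, 36.85, 36.1, 33.7 and 33.5 CPM and in KO Tg-SwDI mice at 34.2, 32.1, 36.6, 39.2 and 39.7 CPM. The 4 groups overlapped, and the mouse with the least Il34, KO Tg-SwDI replicate 2, was the one with the most Csf1 and the most Csf1r. The KO to WT ratio was 1.04 (95% interval 0.963 to 1.13) in Tg-SwDI and 0.943 (0.869 to 1.02) in Non-Tg mice. The transgene ratio was 0.900 (0.830 to 0.976, adjusted p = 0.147) in WT and 0.998 (0.920 to 1.08) in KO mice. In the 3 comparisons where Csf1 passed, its fold lay outside the interval of Il34. When a fitted GC and length trend was taken out of every library, the KO mice had less Il34 with the transgene than without (log2 fold change -0.18, adjusted p = 0.0162).

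Read per length, the balance of the ligands differed between the groups. In WT Non-Tg mice Il34 stood at 19.7 ± 0.849 CPM per kb of exon (SD, n = 5) and Csf1 at 6.63 ± 0.529 CPM per kb. In KO Tg-SwDI mice Il34 stood at 18.6 ± 1.65 and Csf1 at 15.4 ± 2.29 CPM per kb (SD, n = 5), so the Csf1 level came close to that of Il34. The CPM ratio of Csf1 to Il34, taken within each mouse, was 0.785 to 1.06 in WT Non-Tg, 0.833 to 1.09 in KO Non-Tg, 1.63 to 1.98 in WT Tg-SwDI and 1.71 to 3.08 in KO Tg-SwDI mice. This ratio was not divided by exon length (5.281 kb for Csf1, 1.959 kb for Il34). A value above 1 does not mean more Csf1 than Il34 per kb. The log2 ratio was higher by 0.96 with the transgene when miR-34a was present and by 1.27 when it was absent (both p = 0.00794, adjusted p = 0.0212, two-sided exact permutation test, the smallest p that 5 against 5 mice allow). Between KO and WT Tg-SwDI mice it differed by 0.34, with overlapping groups (exact permutation p = 0.0476, adjusted over 8 comparisons 0.0762). Between KO and WT Non-Tg mice it differed by 0.030 (exact permutation p = 0.778).

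Csf3r had the highest transgene fold of the 6 genes in both genotypes, although its interval overlapped that of Csf2rb in WT (2.27 to 3.47 against 2.003 to 3.30) and in KO mice (4.18 to 6.49 against 2.82 to 4.70). Csf3r (ENSMUSG00000028859.14, chromosome 4, 126024550 to 126044440, plus strand) was at 12.2, 6.89, 5.68, 6.997 and 8.11 CPM in WT Non-Tg and at 5.45, 5.31, 5.12, 6.19 and 5.61 CPM in KO Non-Tg mice. It was at 22.5, 21.0, 24.0, 25.0 and 19.7 CPM in WT Tg-SwDI and at 30.5, 27.3, 30.2, 22.7 and 33.75 CPM in KO Tg-SwDI mice. Tg-SwDI and Non-Tg mice did not overlap, whereas KO and WT mice did. The transgene raised Csf3r 2.81-fold in WT (log2 fold change 1.49, SE 0.14, adjusted p = 1.85e-07) and 5.21-fold in KO mice (2.38, SE 0.15, adjusted p = 6.56e-11).

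The KO effect on Csf3r was opposite in sign in the 2 backgrounds, with neither side passing alone. It was 0.36 (log2, SE 0.13, adjusted p = 0.143) in Tg-SwDI and -0.53 (SE 0.16, adjusted p = 0.508) in Non-Tg mice. Their difference of 0.89 (SE 0.21) just passed (interaction, adjusted p = 0.0487). WT Non-Tg replicate 2, at 12.2 CPM, weighed on this: without it the difference was 0.69 (adjusted p = 0.0533) and the KO to WT value in Tg-SwDI mice, 0.37, passed (adjusted p = 0.0440). The call on the difference was lost without 15 of the 20 mice in turn and with the choroid plexus covariate (0.81, adjusted p = 0.123). Neutrophil genes were near 0 in all mice: none of the 8 in the list had enough counts to test, their summed level was 0.313 to 1.18 CPM, and Ly6g was at 0 counts in 3 groups.

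Csf2ra and Csf2rb, the subunits of the GM-CSF receptor, behaved unlike each other. Csf2rb (ENSMUSG00000071713.4, chromosome 15, 78325752 to 78353847, plus strand) was scarce, with 19 to 107 counts a mouse: 1.04 to 2.22 CPM in WT Non-Tg, 0.901 to 1.58 in KO Non-Tg, 3.33 to 5.06 in WT Tg-SwDI and 4.10 to 5.01 in KO Tg-SwDI mice. All Tg-SwDI mice were above all Non-Tg mice, by 2.57-fold in WT (log2 fold change 1.36, SE 0.17, adjusted p = 2.62e-06) and 3.64-fold in KO mice (1.86, SE 0.17, adjusted p = 7.05e-09). Between KO and WT, the ratio was 1.15 (95% interval 0.921 to 1.44) in Tg-SwDI and 0.815 (0.614 to 1.08) in Non-Tg mice. Csf2rb has a near copy next to it, Csf2rb2, the IL-3 receptor subunit particular to the mouse, and 6.46% of all stretches of 100 bases in Csf2rb transcripts are identical in Csf2rb2. How reads from such stretches were counted is not given in the sources used here, so the split between the copies is uncertain. Csf2rb2 was higher with the transgene as well, with log2 fold changes of 0.70 in WT (adjusted p = 0.0139) and 1.02 in KO mice (adjusted p = 9.99e-05); the WT call was lost without WT Non-Tg replicate 6 (adjusted p = 0.0536) or WT Tg-SwDI replicate 6 (adjusted p = 0.0676).

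Csf2ra (ENSMUSG00000059326.6, chromosome 19, 61223957 to 61228429, minus strand) was at 13.05, 15.7, 11.55, 14.3 and 12.7 CPM in WT Non-Tg and at 13.35, 14.98, 11.1, 10.99 and 12.04 CPM in KO Non-Tg mice. It was at 17.2, 17.0, 16.9, 13.1 and 11.4 CPM in WT Tg-SwDI mice, which overlapped both Non-Tg groups. In KO Tg-SwDI mice it was at 24.4, 15.3, 13.9, 15.02 and 31.4 CPM, so replicates 1 and 8 stood above all other mice and the remaining 3 did not. In these 2 mice Csf1r was at 277 and 257 CPM, beside 267 to 307 CPM in the other 3. Their summed homeostatic microglia genes were at 995 and 793 CPM, beside 820 to 1055 CPM. Their choroid plexus sums were 2203 and 3886 CPM, beside 127 to 3660 CPM in the other 3. What set these 2 mice apart was not tested. Csf2ra passed the test only for the transgene in KO mice (log2 fold change 0.68, SE 0.20, adjusted p = 0.0207), where the groups overlapped. That call was lost with the choroid plexus covariate (0.58, adjusted p = 0.186), when the 10 KO mice were fitted alone (0.68, adjusted p = 0.0758), and without KO Non-Tg replicate 4 (0.64, adjusted p = 0.0514), KO Non-Tg replicate 7 (0.63, adjusted p = 0.0516) or KO Tg-SwDI replicate 1 (0.60, adjusted p = 0.0516). In the other comparisons the ratio was 1.13 (95% interval 0.843 to 1.51) for the transgene in WT mice, 1.32 (0.991 to 1.75) for KO in Tg-SwDI and 0.929 (0.693 to 1.25) for KO in Non-Tg mice.

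**Figure D2:**
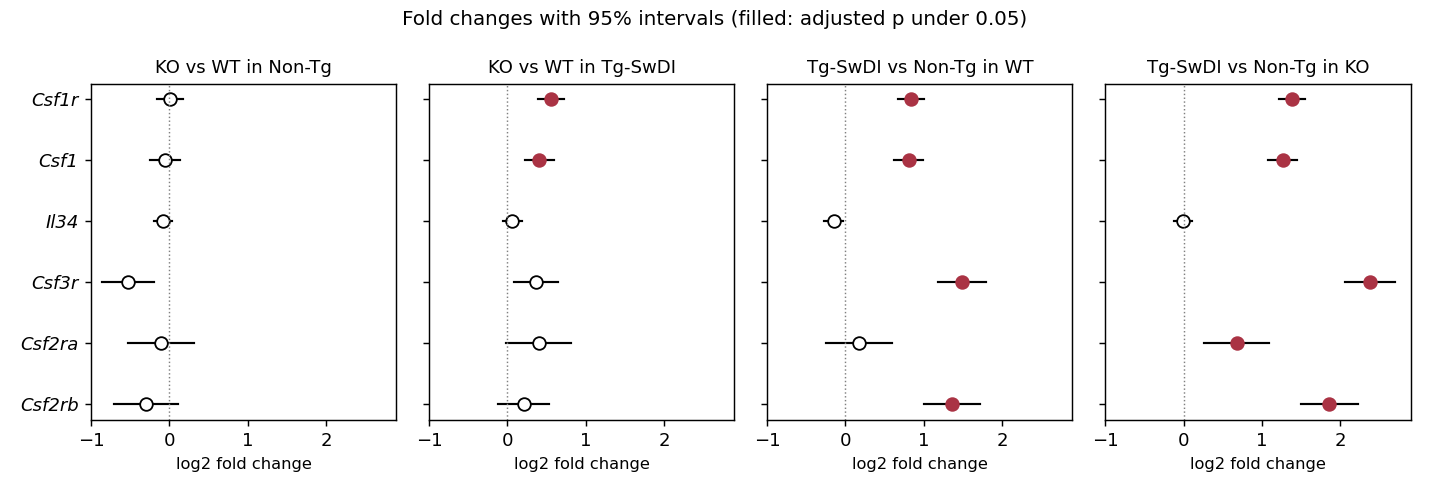
Log2 fold change (x axes) of the 6 genes (rows) in the 4 pairwise comparisons, with 95% intervals; filled points passed an adjusted p of 0.05. No point is filled for KO against WT in Non-Tg mice, Csf1r (0.56) and Csf1 (0.41) are filled in Tg-SwDI mice, and Il34 is open in all 4 panels.

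Counted over the 6 genes, 2 (Csf1r and Csf1) rose with the KO in Tg-SwDI mice and 0 fell, where 1.99% of all tested genes passed in either direction and 1.48% were higher. In the same 2 genes the groups did not overlap, as was so for 3.16% of all genes. In Non-Tg mice 0 of 6 passed by edgeR's quasi-likelihood test, the same as the 0% of all genes. There, 1302 of the 16107 tested genes had an unadjusted quasi-likelihood p under 0.05, which unchanged genes can also reach by chance. For the same comparison DESeq2 called 7 and edgeR's exactTest 4, and in 0 of the 6 genes were the groups apart (2.23% of all genes). With the transgene in WT mice, 4 of 6 were higher (Csf1r, Csf1, Csf3r and Csf2rb) against 4.41% of genes called and 3.94% called higher, and the groups did not overlap in those 4 genes (6.69% of all). With the transgene in KO mice, 5 of 6 were higher against 20.8% called and 12.5% called higher, and in 4 of them the groups did not overlap (12.8% of all). For the interaction 2 of 6 passed, Csf1r and Csf3r, against 0.608% of genes called and 0.428% called higher. The median log2 fold change of the 6 genes was 0.38 for KO in Tg-SwDI mice, -0.096 for KO in Non-Tg mice, 0.82 for the transgene in WT and 1.33 in KO mice, while the median over all genes was within 0.010 of 0 in each.

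Per kb of exon, Csf1r was the most abundant of the 5 genes other than Il34 in all groups. It stood at 18.2 ± 2.66 CPM per kb in WT Non-Tg and 47.8 ± 3.24 in KO Tg-SwDI mice (SD, n = 5). Csf3r went from 2.21 ± 0.696 to 8.005 ± 1.15, Csf2ra from 4.69 ± 0.552 to 6.97 ± 2.65 and Csf2rb from 0.216 ± 0.0647 to 0.646 ± 0.0485 CPM per kb between the same groups. In Non-Tg mice Csf1r and Il34 stood at a like level per kb, with 18.2 ± 1.33 for Csf1r and 18.6 ± 0.210 for Il34 in KO Non-Tg mice.

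The transgene's effect on Csf1r came with that on microglial genes in general. The 12 homeostatic microglia genes, which mark resting microglia, summed to 359 to 434 CPM in WT Non-Tg, 358 to 376 in KO Non-Tg, 688 to 818 in WT Tg-SwDI and 793 to 1055 in KO Tg-SwDI mice. With the transgene 11 of 12 rose in WT mice and 12 of 12 in KO mice, among them Fcrls (log2 fold change 1.57 and 1.91). Called higher over all tested genes were 3.94% and 12.5% in these comparisons and 1.48% for the KO in Tg-SwDI mice. With the KO in Tg-SwDI mice 3 of 12 rose, Selplg (0.39, adjusted p = 0.00654), Siglech (0.32, adjusted p = 0.0267) and Sall1 (0.27, adjusted p = 0.0391). Of 6 genes that microglia share with other macrophages, 6 rose with the transgene in either genotype, and Cd68 (0.68, adjusted p = 0.00635), Itgam (0.54, adjusted p = 0.00593) and Laptm5 (0.44, adjusted p = 0.0413) rose with the KO in Tg-SwDI mice. Of these KO calls, those of Selplg and Itgam held under all 29 alternatives other than the replicate block, while those of Cd68, Siglech, Sall1 and Laptm5 were lost under 1, 6, 9 and 13 of them.

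Divided by the summed homeostatic genes within each mouse, Csf1r still differed by miR-34a genotype in Tg-SwDI mice. The ratio was 0.278 to 0.326 in KO Tg-SwDI and 0.236 to 0.253 in WT Tg-SwDI mice, with no overlap, a difference of 0.30 on the log2 scale or 1.23-fold (exact permutation p = 0.00794, adjusted p = 0.0212). In Non-Tg mice it was 0.264 to 0.315 in KO and 0.252 to 0.302 in WT, a log2 difference of 0.094 (exact permutation p = 0.183, adjusted p = 0.243). The transgene difference was -0.14 in WT mice (exact permutation p = 0.0159, adjusted p = 0.0317), but 0.021 when the mean log2 CPM of the genes was the denominator, and 0.066 in KO mice (p = 0.278, exact permutation test). The choice of the denominator mattered for the transgene: divided by the 6 genes shared with macrophages, the transgene difference was -0.80 in KO mice (exact permutation, adjusted p = 0.0127). With that denominator the difference between KO and WT was 0.16 in Tg-SwDI (exact permutation, adjusted p = 0.0423) and 0.33 in Non-Tg mice (exact permutation, adjusted p = 0.0127).

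**Figure D3:**
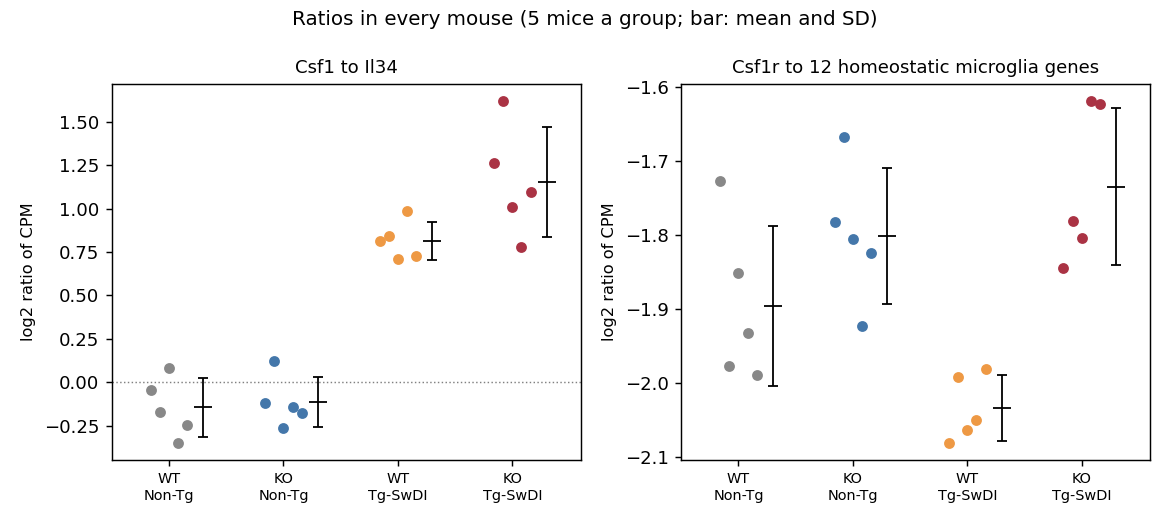
Log2 ratio of CPM (y axes) in every mouse of the 4 groups (x axes), for Csf1 over Il34 (left) and for Csf1r over the summed 12 homeostatic microglia genes (right); the bar is the mean with the SD, and the y axes do not start at 0. The Csf1 to Il34 ratio is above 0.70 in all Tg-SwDI mice and below 0.13 in all Non-Tg mice, and the Csf1r ratio of every KO Tg-SwDI mouse lies above that of every WT Tg-SwDI mouse.

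Markers of other cell types were counted in the same way. Of all tested genes, 1.99% passed for KO in Tg-SwDI mice, 4.41% for the transgene in WT and 20.8% for the transgene in KO mice. Of 7 genes of border-associated macrophages, such as Mrc1 and F13a1, none passed in any comparison, and their sum was 7.85 to 20.9 CPM over all mice; for KO in Tg-SwDI mice all 7 values were above 0, with a median log2 fold change of 0.49 beside 0.27 for the homeostatic microglia genes. Of 5 blood monocyte genes, 2 could be tested (Ccr2 and Fn1) and none passed; Ly6c2 was at 0.0480 to 0.237 CPM as a group mean. Of 7 astrocyte genes, 4 were higher with the transgene in WT and 3 in KO mice, led by Aqp4 (0.62 and 0.87), and 0 differed between KO and WT. Of 6 endothelial genes only Ly6c1 passed, for KO in Tg-SwDI mice (0.46, adjusted p = 0.00701) and for the transgene in KO mice (0.38, adjusted p = 0.0022); the first call was lost with the 10 mice alone (adjusted p = 0.0779) and the second with the choroid plexus covariate (0.24, adjusted p = 0.120). Of 7 oligodendrocyte genes 4 were higher with the transgene in KO mice (Mag, Mbp, Mobp and Mog, 0.23 to 0.36). Of 8 neuron genes 2 were lower there (Syt1 -0.26 and Gad1 -0.14), where 20.8% of all genes were called. None of either list passed in the other comparisons. With the choroid plexus covariate the calls of Mobp (0.29, adjusted p = 0.0783) and Gad1 (-0.096, adjusted p = 0.367) were lost. With the GC and length trend removed those of Mobp (0.185, adjusted p = 0.108) and Mog (0.071, adjusted p = 0.528) were lost. Of the 9 choroid plexus genes 7 were higher with the transgene in KO mice (Ttr, 4.30, adjusted p = 0.0245) and none passed elsewhere. Each of these 7 calls was lost under 5 to 10 of 29 alternatives. That of Ttr was lost without KO Non-Tg replicate 1, 4, 7 or 8 (adjusted p = 0.0509 to 0.0596). With the choroid plexus covariate, the Csf1r, Csf1, Csf3r and Csf2rb calls for the transgene held. So did the Csf1r and Csf1 calls for KO in Tg-SwDI mice. The part of the other marker lists in the results was not tested.

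The remaining ligands and receptors of the family were mostly too scarce to test. Csf2 (GM-CSF), Csf3 (G-CSF) and Il3, the ligands of the 3 related receptors, were at group means of 0 to 0.0480 CPM, Il5 at 0.105 to 0.184 CPM and Il5ra at 0 to 0.0386 CPM, so a change was not detectable at this depth. Il3ra, which pairs with Csf2rb to bind IL-3, could be tested. It was at 4.73, 3.91, 3.67, 3.64 and 4.96 CPM in KO Tg-SwDI and at 2.58, 2.79, 2.36, 2.27 and 3.01 CPM in WT Tg-SwDI mice, without overlap. The KO to WT fold of Il3ra was 1.60 (log2 fold change 0.68, SE 0.16, adjusted p = 0.0264), and its interaction of 0.69 did not pass (adjusted p = 0.162). The KO call was lost without WT Tg-SwDI replicate 3, 5 or 6 or KO Tg-SwDI replicate 8, with the 10 mice alone and with the GC and length trend removed (0.60 to 0.68, adjusted p up to 0.0747). The transgene raised Il3ra 2.04-fold in WT (adjusted p = 2.94e-04) and 3.29-fold in KO mice (adjusted p = 2.49e-08). Ptprz1, a further receptor for IL-34, was higher with the transgene in WT mice (0.24, adjusted p = 0.00704) and passed in no other comparison, and Sdc1, which binds IL-34 at the cell surface, passed in none. Of 10 other class III kinases and their ligands 0 passed for KO in Tg-SwDI mice or the transgene in WT mice, while Kit was lower (-0.23, adjusted p = 0.00899) and Pdgfb higher (0.21, adjusted p = 0.0387) with the transgene in KO mice. These 2 of 10 stood beside 20.8% of all tested genes called in that comparison. Both calls were lost with the choroid plexus covariate (-0.20, adjusted p = 0.103 for Kit; 0.14, adjusted p = 0.363 for Pdgfb), and that of Pdgfb under 10 of 29 alternatives in all.

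Transcription factors of the myeloid lineage rose with the transgene alongside Csf1r. Of 8 such genes 6 rose in WT and 7 in KO mice, led by Irf8 (log2 fold change 1.65 in WT and 2.31 in KO), Runx1 (1.51 and 2.19), Spi1, which encodes PU.1 (0.91 and 1.66), and Cebpa (0.71 and 1.09). Called higher over all tested genes were 3.94% in WT and 12.5% in KO mice. The call of Cebpb with the transgene in KO mice (0.28) was lost with the choroid plexus covariate (0.21, adjusted p = 0.28). It was lost under 6 of 29 alternatives in all. Between KO and WT Tg-SwDI mice Spi1 had a value of 0.52, which missed the threshold (adjusted p = 0.0633). None passed for the interaction.

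Genes that act downstream of CSF1R were followed in a list of 29. Of these, 12 rose with the transgene in WT mice and 14 in KO mice, beside 3.94% and 12.5% of all tested genes. In KO mice Cbl, a ubiquitin ligase that takes CSF1R off the surface, was lower with the transgene (-0.15, adjusted p = 0.0429). That call was lost under 15 of 29 alternatives, among them the choroid plexus covariate (-0.12, adjusted p = 0.292). Mapk3, among those that rose in KO mice (0.22), lost its call with that covariate (0.19, adjusted p = 0.162). The same held with the GC and length trend removed (0.060, adjusted p = 0.531). The 4 largest changes in KO mice, given here for WT and then KO, were those of Fgr, a Src family kinase (2.76 and 4.45), Tyrobp, the DAP12 adaptor (2.29 and 3.03), Ptpn6, a phosphatase (1.55 and 2.30), and Rac2, a small GTPase (0.97 and 1.85). Grb2, a broadly used adaptor, did not pass, with log2 fold changes of 0.0036 and 0.010. Between KO and WT Tg-SwDI mice 1 of 29 passed, Tyrobp (0.40, SE 0.09, adjusted p = 0.0229), and for the interaction 2 passed, Tyrobp (0.74, adjusted p = 0.0199) and Rac2 (0.88, adjusted p = 0.0199). The KO call of Tyrobp was lost without WT Tg-SwDI replicate 3 (0.36, adjusted p = 0.0675) or 7 (0.35, adjusted p = 0.0763), with the 10 mice alone (0.40, adjusted p = 0.0734), with library size alone and with the GC and length trend removed. Both interaction calls were lost without KO Non-Tg replicate 7 (adjusted p = 0.0513), that of Tyrobp also with the GC and length trend removed and that of Rac2 also with the choroid plexus covariate (0.82, adjusted p = 0.0527) and without WT Non-Tg replicate 2. Of 6 genes of the JAK-STAT route used by the GM-CSF and G-CSF receptors, Stat3 (0.31 and 0.48) and Socs3 (0.61 and 1.17) rose with the transgene in both genotypes, Stat5a (0.64) and Cish (0.66) in KO mice, and 0 differed between KO and WT. That made 2 of 6 in WT and 4 of 6 in KO mice, beside 3.94% and 12.5% of all tested genes called higher. With the choroid plexus covariate the calls of Stat5a (0.62, adjusted p = 0.0590) and Cish (0.13, adjusted p = 0.765) were lost, and that of Socs3 in WT mice was lost without WT Non-Tg replicate 6 or WT Tg-SwDI replicate 4.

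**Figure D4:**
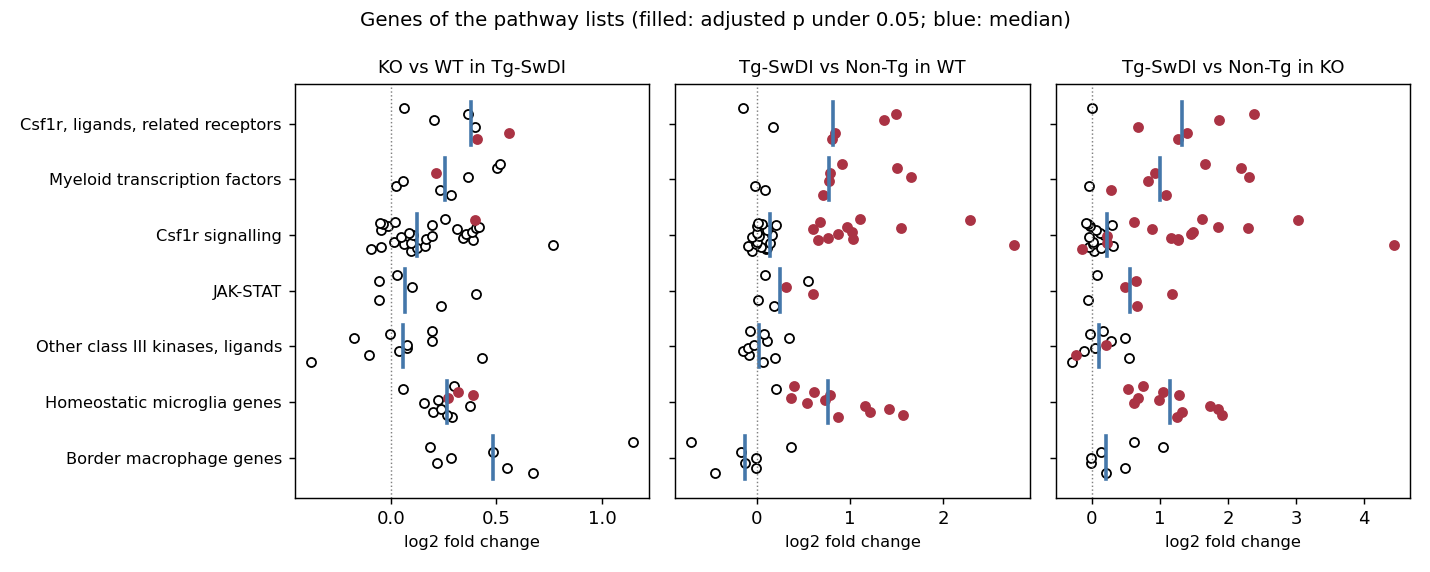
Log2 fold change (x axes) of each tested gene in 7 lists (rows) for KO against WT in Tg-SwDI mice and for the transgene in WT and KO mice; filled points passed an adjusted p of 0.05 and the blue line is the list’s median, and the x axes differ in range. In the signalling list 1, 12 and 15 of 29 genes are filled from left to right, and in the border macrophage list none is.

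The genes most like Csf1r over the 20 mice were Grn (progranulin, r = 0.990), Serpine2 (0.986), Selplg (0.985), Chil1 (0.980) and Apobec3 (0.979). Those most like Csf1 were Chil1 (0.984), Ctsa (0.983), Grn (0.981), Laptm5 (0.981) and Tgfb1 (0.979), and those most like Il34 were Fxyd6 (0.858), Hexim2 (0.818), Rtl8c (0.813), Mrps27 (0.807) and Hapln3 (0.786). These Pearson coefficients of log2 CPM describe mice that share the group differences; taken on deviations from the group means they were 0.764 for Grn with Csf1r and 0.831 for Fxyd6 with Il34. Among the 6 genes, Csf1r and Csf1 had r = 0.970 over all mice and 0.486 within groups, and Csf2rb and Csf3r had 0.963 and 0.519. Il34 ran against Csf1, at -0.433 over all mice and -0.453 within groups. Csf2ra had r = 0.564 with Csf1r over all mice and -0.191 within groups.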

How the data were processed

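The authors prepared stranded mRNA libraries, used STAR for alignment (mm10) and featureCounts with ENSEMBL gene models, and deposited raw read counts per gene; versions, strand setting and the handling of reads matching several genes are not given in the sources used here. Gene symbols came from GENCODE M21 (99.5% of IDs matched). Samples were grouped by their labels. Counts were tested with edgeR 4.0.16 (R 4.3.3, limma 3.58.1): TMM factors, filterByExpr (minimum count 10, minimum total 15), a robust quasi-likelihood fit of the 4 group means (16 residual degrees of freedom), and Benjamini-Hochberg adjustment over 16107 genes at 0.05. The fit was first tested on simulated counts with known changes. Log CPM used a prior count of 2. Ratios were taken per mouse and tested by two-sided exact permutation. Each library held 19549622 to 21066868 counts, so scarce genes such as Csf2rb were measured less precisely. Alternatives were DESeq2 1.42.0, exactTest, other filters and scalings, covariates and each mouse left out. None of the 40 library pairs within groups agreed within counting noise. The 6 genes and the lists were chosen with earlier results of these data known. Named were the 6 genes, Csf2rb2, per list up to 4 called genes with the largest change in KO against WT Tg-SwDI mice and up to 4 for the transgene, or the most abundant where none passed, and the 5 genes most like Csf1r, Csf1 and Il34; Grb2, Spi1 in Tg-SwDI mice and Hmgxb3 were added after their values were seen, and some genes that the rule names are not reported here.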

Additional observations from a re-analysis of the deposited data

Results flagged for a closer look

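Values far from the rest of their group were looked for in 32 groups of 5 mice, of which chance marks about 1 in 20. Csf1r was at 162.5 CPM in WT Tg-SwDI replicate 3, below the other 4 mice of its group. Without that mouse the KO to WT difference of Csf1r in Tg-SwDI mice kept its call. Il34 was at 37.17 CPM in KO Non-Tg replicate 1, against 36.2 to 36.4 CPM in the other 4 mice, a small gap in a group with an SD of 0.411 CPM. The KO effect differed between Tg-SwDI and Non-Tg mice by 0.5564 on the log2 scale for Csf1r and by 0.8923 for Csf3r, both by the interaction term; for Csf3r the call was lost without 15 of the 20 mice in turn.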

How the results depend on the processing

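Of 984 recomputed values over 38 results, 917 kept their direction and side of the threshold, 38 lost and 8 gained a call, and 21 changed sign. Csf1r for KO in Non-Tg mice was -0.00046 with a mean CPM of at least 1, -0.0076 with library size alone, and -0.044 to 0.095 over the mice left out; its interaction ranged from 0.47 to 0.60 (adjusted p up to 0.0513). Csf1 for KO in Tg-SwDI mice was 0.41 with the 10 mice alone and 0.34 to 0.47 over mice left out, and its interaction was 0.46 with DESeq2 (adjusted p = 0.0225) and 0.39 to 0.53 over mice left out. Il34 with the GC and length trend removed was -0.025 for KO in Tg-SwDI mice, -0.18 for the transgene in KO mice and -0.010 for the interaction; for the transgene in KO mice it was 0.0010 with no filter, 0.014 with a mean CPM of at least 1 and -0.034 to 0.053 over mice left out. Csf2ra for the transgene in KO mice was 0.68 with the 10 mice alone, 0.58 with the choroid plexus covariate and 0.46 to 0.78 over mice left out. The Csf3r interaction was 0.90 with no filter, 0.85 with library size alone, 0.81 with the choroid plexus covariate, 0.80 with the GC and length trend removed and 0.69 to 0.99 over mice left out, and Csf3r for KO in Tg-SwDI mice 0.30 to 0.44. The causes were not tested. Calls over all genes, 320 for KO in Tg-SwDI mice, were 733 with DESeq2, 565 with exactTest, 568 with the choroid plexus covariate, 155 with the GC and length trend removed, 58 with the 10 mice alone, 78 without WT Tg-SwDI replicate 7 and 701 without KO Tg-SwDI replicate 2; they were 239 higher and 81 lower, against 102 and 115 with library size alone. For the transgene in KO mice, 3351 calls (2013 higher, 1338 lower) became 1249 with the choroid plexus covariate, 1675 higher and 1792 lower with library size alone and 1513 higher and 2916 lower with the GC and length trend removed. The 98 interaction calls became 482 with DESeq2, 59 with library size alone, 32 with the choroid plexus covariate, 34 with the GC and length trend removed, 14 without KO Non-Tg replicate 7 and 500 without KO Tg-SwDI replicate 2.

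The log2 ratio of Csf1r to homeostatic genes for the transgene in WT mice was 0.021 with the mean log2 CPM of the markers, and -0.16 to -0.096 over mice left out, where 4 against 5 mice allow no p under 0.0159. For the transgene in KO mice it was 0.24 with the mean log2 CPM and -0.80 with the markers shared with macrophages; for KO in Non-Tg mice it was 0.33 with the latter. The log2 ratio of Csf1 to Il34 was -0.030 to 0.087 for KO in Non-Tg and 0.22 to 0.43 for KO in Tg-SwDI mice over mice left out.

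The replicate numbers did not pair the mice: same-numbered mice had correlations of -0.404 to 0.154, and in the 4 pairwise comparisons only 1 of the mice that shared a number correlated best with its own number. With the replicate number as a block the calls over all genes were 8 for KO in Tg-SwDI mice, 0 for KO in Non-Tg, 709 and 2538 for the transgene in WT and KO and 38 for the interaction, against 320, 0, 710, 3351 and 98 without it. Under the block, Csf1r for KO in Non-Tg mice was -0.040, Csf1 for KO in Tg-SwDI mice 0.31, Csf2ra for the transgene in KO mice 0.57 and the Csf3r interaction 0.77, the last 3 no longer past the threshold.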
